A study of Mus musculus with 4 samples.

Results

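The Slc25 genes encode the mitochondrial carriers, and 44 of them were measured in sorted stem cells and non-stem cell epithelia of the submandibular gland of mice. They are all non-control genes of the array whose name is Slc25a followed by a number, and each was represented by its brightest probe over both groups. The 44 genes are a small part of the 36161 gene names on the array, and they were covered by 52 probes, with 8 genes holding 2 probes. The first group was 2 arrays of submandibular gland stem cells and the second was 2 arrays of non-stem cell epithelia of the same gland. All cells came from C57BL/6 mice aged 8 to 10 weeks, and no genetic change or drug is named for either group. Cells were separated freshly by flow cytometry, on antigens that the sources used here do not give, and total RNA was labelled with Cy3 for 1-colour Agilent arrays. Since the labels name no separate animals or sorts behind the 2 samples of a group, each p-value measures sample-to-sample spread alone, possibly technical.

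Carriers of this family are small proteins of the inner mitochondrial membrane that bind a solute on 1 side and release it on the other, which lets ATP, phosphate, metabolites, cofactors and iron pass a membrane that is otherwise closed to them. A few members sit elsewhere, such as Slc25a17 in peroxisomes and Slc25a46 in the outer mitochondrial membrane. Salivary acinar cells make and secrete large amounts of protein and fluid, work that uses mitochondrial ATP, and duct cells are known for rich mitochondria along their basal side.

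All 4 arrays lay on 1 slide and were scanned together. The signal's 75th percentile was 30.4 and 43.3 for the stem cells, with 74.8 and 63.0 for the others, and 34.6% to 41.3% of probes per array were well above background. No spot was saturated. Epithelial markers such as Cdh1 and Epcam were above background in both groups, and of 7 tested 3 fell and none rose in stem cells. Epcam fell by 1.23 ± 0.19, Esrp2 fell by 0.87 ± 0.18 and Esrp1 fell by 0.59 ± 0.15 on the log2 scale, and Cdh1 differed by 0.28 ± 0.15 and did not pass. Of 11 tested basal and myoepithelial markers 6 rose and none fell in stem cells, and of 14 acinar markers 8 fell and 1 rose, while 10 of 13 duct and granular tubule markers rose and 1 fell. The summed linear acinar signal, in units of the array's 75th percentile, was 8234 and 7697 in stem cells, with 14353 and 15541 in the non-stem epithelia. Of 10 leukocyte markers 5 were tested and 1 rose, Itgam by 0.86, with summed signals of 86.4 and 66.6 in stem cells against 42.1 and 47.7 in the others, while Ptprc was well above background on no array. Of 7 fibroblast markers 2 were tested and 1 rose, Dcn by 2.14, while the other differed by -0.49 and did not pass. The sums were 21.0 and 22.8 in stem cells against 8.95 and 9.44 in the others, and Col1a1 was well above background on no array. Of 10 endothelial markers 5 were tested, of which Robo4 and Cd34 were higher and Vwf was lower, with sums of 19.3 and 15.4 in stem cells against 23.9 and 25.5 in the others. The part of all these cell types in the Slc25 differences was not tested. In sorted populations of mixed cells, fewer cells of a type and less RNA per cell cannot be told apart.

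Of the 44 Slc25 genes, 36 were tested, because 2 or more of the 4 arrays showed their probe well above background. All values below are log2 signals relative to the 75th percentile of their own array, and a difference is stem cells minus non-stem cell epithelia. Signals of different probes are not compared as levels. By limma, at a Benjamini-Hochberg adjusted p under 0.05 among the 17306 genes tested, 13 Slc25 genes were lower and 4 were higher in stem cells, and 19 did not pass. Over all genes tested, 31.0% were called, 14.2% higher and 16.8% lower. The share of tested Slc25 genes called higher, 11.1%, was thus close to that of all genes, and the share called lower was 36.1%. The 36 tested Slc25 genes had a median difference of -0.27, and all genes tested had a median of -0.01. No test of the Slc25 genes as a set was made. At a minimum of 2-fold, 9 were lower and 2 higher, where 9.57% and 7.05% of all genes were lower and higher. Both stem cell values lay below both non-stem values for 19 of the 36 and above them for 7, and for all genes these shares were 36.3% and 34.7%.

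Of the 36 tested genes, 30 were above background on all 4 arrays and 2 on 3 arrays. The other 4 passed through 1 group alone, Slc25a21 through stem cells and Slc25a20, Slc25a30 and Slc25a48 through non-stem cell epithelia. The filter itself favoured a difference in these 4, so their calls are no evidence of a tendency. Among the 30 genes measured on every array, refitted with only such genes, 10 were lower and 3 higher, where 19.6% and 20.2% of all such genes were lower and higher. On none of the 4 arrays were 8 genes well above background, namely Slc25a2, Slc25a15, Slc25a18, Slc25a22, Slc25a31, Slc25a41, Slc25a43 and Slc25a45. Slc25a31 is the adenine nucleotide carrier of the male germ line, and Slc25a15 is the ornithine carrier that serves the urea cycle in the liver.

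**Figure D1:**
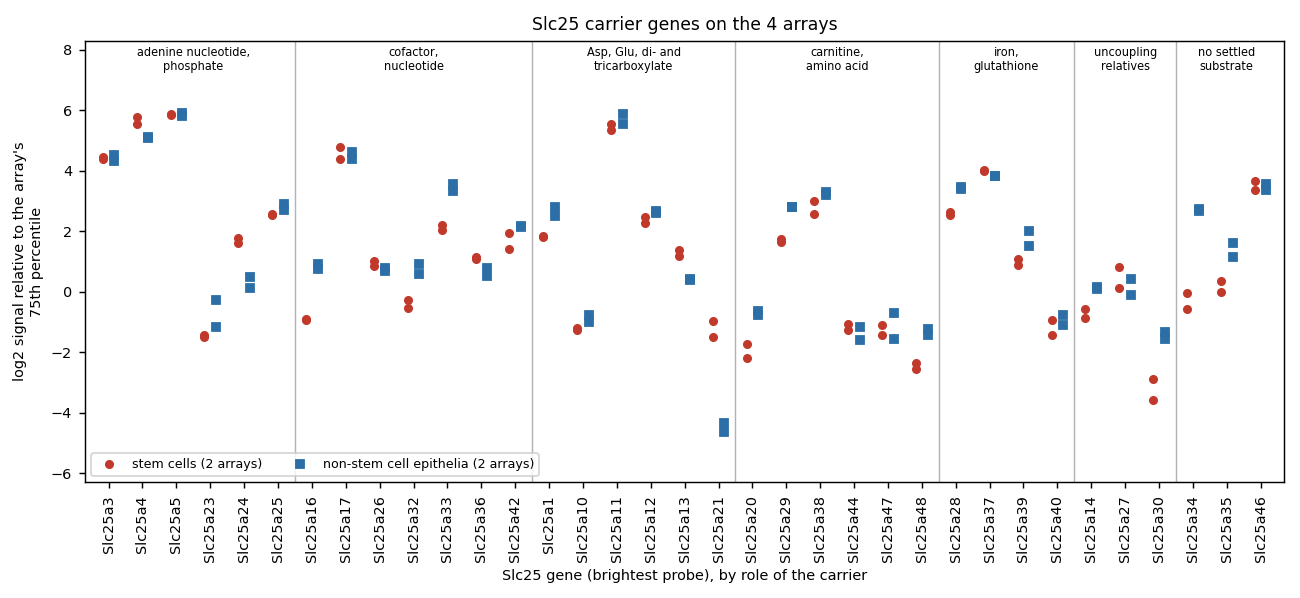
Log2 signal relative to the array's 75th percentile (vertical axis) of the tested Slc25 genes reported by name (horizontal axis, grouped by role), with stem cells as circles on the left and non-stem cell epithelia as squares on the right of each gene, 1 point per array. Slc25a34, at -0.56 and -0.05 in stem cells, with 2.75 and 2.66 in the non-stem epithelia, shows a wide gap, while the points of Slc25a3 and Slc25a5 overlap. The non-stem points of Slc25a21 and the stem cell points of Slc25a20, Slc25a30 and Slc25a48 were not well above background.

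The largest fall was that of Slc25a34, a carrier whose substrate is not settled. Its log2 signal was -0.56 and -0.05 in stem cells, with 2.75 and 2.66 in the non-stem epithelia. Both stem cell arrays lay far below both others, and the gene was 8.07-fold lower in stem cells (difference -3.01 ± 0.21, SE, n = 2 arrays per group, limma adjusted p = 0.00074). Slc25a21 was higher in stem cells and is the carrier of oxoadipate and related dicarboxylates in the breakdown of lysine and tryptophan. It stood at -0.96 and -1.51 in stem cells, with -4.65 and -4.35 in the non-stem epithelia, where it was not well above background on either array. Where a group was not above background, the fold is a lower bound, set on each array of that group by the dimmest probe well above background there, or by the gene's own signal where that was higher. For Slc25a21 stem cells were higher by at least 2.42-fold in the processing as reported. The limma adjusted p = 0.00077 belongs to the measured difference of 3.27 and does not test that bound. With normexp background correction the difference of Slc25a21 was 0.67, still called higher but smaller than the bound. The probes of these genes are shown with that of Slc25a16, the next largest fall among genes measured in both groups, both probes of Slc25a33 and that of Slc25a24, since the calls rest on what these oligos bind. Each line gives the first 30 of the probe's 60 bases, 5′ to 3′, in lower case with nothing marked.
Slc25a34: cccaagtgagaaaaattactccagatgaac
Slc25a21: gggtatttctgctagaggcaatctcaccac
Slc25a16: cttggtatgtactaggaaatgtaaatggac
Slc25a33, brightest probe: agtgttcaaaactgaaacagtgaaggccat
Slc25a33, second probe: accttaatgaatcctatttggatggttaaa
Slc25a24: catcttgtatcttttttggggaaaaaaccc

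In the files' mm9 coordinates, the Slc25a34 probe lies on the minus strand at chr4:141174747-141174806 and the Slc25a21 probe on the minus strand at chr12:57813811-57813870. The Slc25a16 probe lies on the plus strand at chr10:62408580-62408639 and that of Slc25a24 on the plus strand at chr3:108971266-108971325. The probes of Slc25a33 lie on the minus strand at chr4:149118713-149118772 and chr4:149123432-149126565, and the second spans 3134 bases of the genome with its 60 bases. Across all 52 probes, no 2 probes of different Slc25 genes shared a run of more than 12 bases.

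Among the carriers of adenine nucleotides and phosphate, 2 of 6 tested genes rose and none fell. These counts by role, here and below, stand beside 14.2% higher and 16.8% lower over all genes tested. Slc25a24, a calcium-regulated carrier that exchanges ATP-magnesium for phosphate, had 1.61 and 1.78 in stem cells, with 0.51 and 0.12 in the non-stem epithelia. It was 2.61-fold higher in stem cells, without overlap (difference 1.38 ± 0.20, limma adjusted p = 0.0060). Its relatives of the same exchange did not pass. Slc25a23 stood at -1.43 and -1.51 in stem cells, with -1.16 and -0.27 in the non-stem epithelia (adjusted p = 0.12), and it was not well above background on 1 of the 2 stem cell arrays. Slc25a25 had 2.53 and 2.56 in stem cells, with 2.72 and 2.89 in the non-stem epithelia (adjusted p = 0.26). Whether the difference of Slc25a24 is unlike those of its relatives was not tested.

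Slc25a4 and Slc25a5 encode the 2 ADP/ATP translocases of body tissues, the first best known from heart and muscle and the second from dividing cells. Slc25a4 had 5.54 and 5.77 in stem cells, with 5.07 and 5.10 in the non-stem epithelia, without overlap. It rose by 0.57 ± 0.16, or 1.49-fold (adjusted p = 0.048). Its probe was spotted 10 times on each array, and the SD between the spots of an array, 9 of them usable on non-stem replicate 2, was 0.024 to 0.035. The call was lost with normexp background correction, where the difference was 0.09, without stem cells replicate 2, without either non-stem array and with the replicate number as a block. Slc25a5 had 5.88 and 5.84 in stem cells, with 5.90 and 5.82 in the non-stem epithelia, values that overlap and differ by 0.00 ± 0.15. The phosphate carrier gene Slc25a3 differed as little and had 4.44 and 4.39 in stem cells, with 4.52 and 4.32 in the non-stem epithelia. With normexp, Slc25a5 and Slc25a3 were called lower, at -0.47 and -0.46. The median difference of all genes was -0.10 with normexp and -0.01 as reported. Gene by gene, the median shift of the difference under normexp was larger, at -0.28 over all genes tested.

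Of 8 tested carriers of cofactors and nucleotides, 3 fell and none rose. Slc25a16, which has been tied to coenzyme A in mitochondria, had -0.92 and -0.90 in stem cells, with 0.91 and 0.75 in the non-stem epithelia. The gap between the groups was wide beside the spread within them, and the gene was 3.34-fold lower in stem cells (difference -1.74 ± 0.16, limma adjusted p = 0.0014). Slc25a33, a carrier of pyrimidine nucleotides linked to insulin signalling and mitochondrial DNA, had 2.05 and 2.20 in stem cells, with 3.56 and 3.35 in the non-stem epithelia. It fell by 1.33 ± 0.17 (adjusted p = 0.0042), and its second probe, which differed by -2.40, had -1.26 and -1.80 in stem cells, with 0.74 and 1.00 in the non-stem epithelia. Slc25a36, the other pyrimidine nucleotide carrier, had a difference of the other sign, at 1.15 and 1.09 in stem cells, with 0.80 and 0.52 in the non-stem epithelia, and did not pass (difference 0.46 ± 0.17, adjusted p = 0.097).

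Slc25a32, the folate carrier, had -0.55 and -0.27 in stem cells, with 0.92 and 0.60 in the non-stem epithelia, and fell by 1.17 ± 0.20 (limma adjusted p = 0.010). No stem cell value reached the lower non-stem value. The coenzyme A carrier gene Slc25a42 had 1.43 and 1.93 in stem cells, with 2.19 and 2.15 in the non-stem epithelia (adjusted p = 0.14). The peroxisomal carrier gene Slc25a17 and the S-adenosylmethionine carrier gene Slc25a26 differed by 0.06 and 0.20 and did not pass. Slc25a17 had 4.38 and 4.79 in stem cells, with 4.63 and 4.41 in the non-stem epithelia. The second probe of Slc25a26, well above background on 1 of the 2 stem cell arrays, had the opposite sign of the first and stood at -1.38 and -0.69 in stem cells, with -0.11 and 0.03 in the non-stem epithelia. The 2 probes of Slc25a25 had the same sign, with differences of -0.61 and -0.26. The second probe of Slc25a44 was not well above background in stem cells and its values overlapped between groups.

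**Figure D2:**
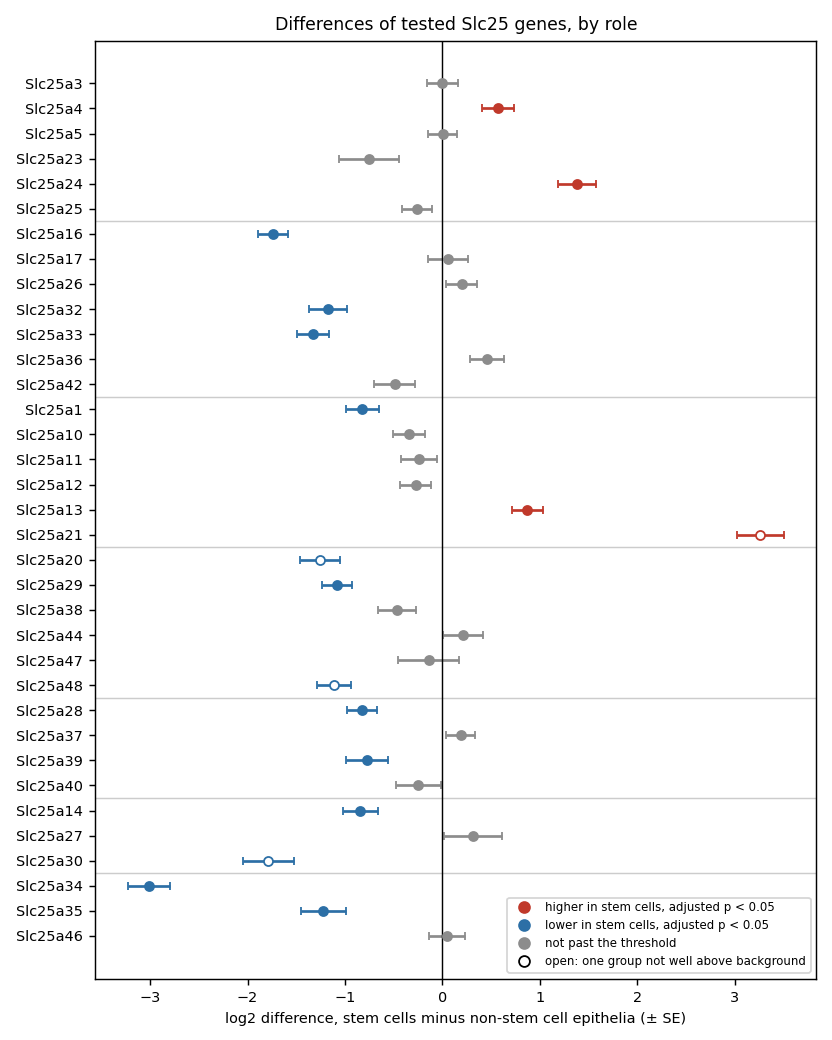
Log2 difference of stem cells minus non-stem cell epithelia (horizontal axis, points, with the SE of the limma fit as bars) for the tested Slc25 genes reported by name, separated by lines into the 7 role groups. Blue points (13 genes) were lower and red points (4 genes) higher at an adjusted p under 0.05, and open points mark the 4 genes measured above background in 1 group alone.

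Among 6 tested carriers of aspartate, glutamate and di- or tricarboxylates, 2 rose and 1 fell. The higher genes include Slc25a21, which passed the filter through stem cells alone, so that the filter favoured a difference. The 2 aspartate-glutamate carriers of the malate-aspartate shuttle, which brings the electrons of cytosolic NADH into mitochondria, had differences of opposite sign. Slc25a13, known as citrin, had 1.17 and 1.40 in stem cells, with 0.41 and 0.42 in the non-stem epithelia, and was 1.83-fold higher in stem cells (difference 0.87 ± 0.16, limma adjusted p = 0.014). Slc25a12, known as aralar, had 2.28 and 2.47 in stem cells, with 2.61 and 2.68 in the non-stem epithelia (difference -0.27 ± 0.16, adjusted p = 0.24). The contrast between the 2 genes was not itself tested.

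Slc25a11, the oxoglutarate carrier of the same shuttle, had 5.36 and 5.56 in stem cells, with 5.87 and 5.53 in the non-stem epithelia, which overlap (adjusted p = 0.37). Slc25a1, which exports citrate for fatty acid synthesis, had 1.82 and 1.86 in stem cells, with 2.51 and 2.80 in the non-stem epithelia, and fell by 0.82 ± 0.17 (adjusted p = 0.020). Both stem cell arrays were below both others. Slc25a10, the dicarboxylate carrier, had both stem cell values below both non-stem values and did not pass (difference -0.34 ± 0.17, adjusted p = 0.17).

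Of the carriers of carnitine, ornithine and other amino acids, 3 of 6 tested genes fell and none rose. Of the 3, Slc25a20 and Slc25a48 passed the filter through the non-stem epithelia alone, so that the filter favoured a difference. Slc25a29, a carrier of basic amino acids, had 1.66 and 1.76 in stem cells, with 2.79 and 2.80 in the non-stem epithelia. It was 2.12-fold lower in stem cells, a gap many times the spread within each group (difference -1.08 ± 0.15, limma adjusted p = 0.0057). Slc25a20, the carnitine-acylcarnitine carrier that brings fatty acids in for oxidation, had -2.17 and -1.73 in stem cells, where it was not well above background, and -0.63 and -0.76 in non-stem cell epithelia. It was at least 1.9965-fold lower in stem cells. Slc25a48, counted here among these carriers, was at least 1.575-fold lower in stem cells. It had -2.56 and -2.34 there and -1.44 and -1.24 in non-stem cell epithelia. The adjusted p-values of the measured differences, 0.0089 and 0.0082, do not test these bounds, and with normexp the difference of Slc25a48 was 0.02 and that of Slc25a20 was -0.14, neither past the threshold. Slc25a38, the glycine carrier that haem synthesis depends on, had 2.59 and 3.01 in stem cells, with 3.32 and 3.22 in the non-stem epithelia (adjusted p = 0.13), and Slc25a44 and Slc25a47 overlapped between groups.

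Of 4 iron and glutathione carriers, 2 fell. Slc25a28, the mitoferrin of most tissues, had 2.55 and 2.65 in stem cells, with 3.39 and 3.46 in the non-stem epithelia, and fell by 0.82 ± 0.15 (limma adjusted p = 0.013). Slc25a37, the mitoferrin of red cell precursors, had 3.99 and 4.04 in stem cells, with 3.83 and 3.82 in the non-stem epithelia and did not pass (difference 0.19 ± 0.15, adjusted p = 0.37). Slc25a39, a glutathione carrier, had 0.88 and 1.08 in stem cells, with 1.51 and 2.00 in the non-stem epithelia. It fell by 0.77 ± 0.22 (adjusted p = 0.045), a call that was lost with quantile normalization (limma adjusted p = 0.077), with a percentile taken over detected probes (0.090) and without either non-stem array. Its relative Slc25a40 overlapped between groups and had -0.94 and -1.42 in stem cells, with -0.76 and -1.10 in the non-stem epithelia.

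Red cell markers differed between the sorts alongside these genes. Of 11 erythroid markers 6 were tested and all 6 were lower in stem cells, and their summed linear signal, in units of the array's 75th percentile, was 380.4 and 414.6 in stem cells, with 1282 and 1305 in the non-stem epithelia. None of the 4 arrays showed the defining regulators Gata1 and Klf1 well above background. The part of red cell RNA in the differences of Slc25a28, Slc25a38 and Slc25a39 was not tested.

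Among the relatives of the uncoupling proteins, which let protons leak back and turn the gradient into heat, 2 of 3 tested genes fell. The lower genes include Slc25a30, which passed the filter through the non-stem epithelia alone, so that the filter favoured a difference. Slc25a14 had -0.87 and -0.56 in stem cells, with 0.16 and 0.09 in the non-stem epithelia (difference -0.84 ± 0.18, limma adjusted p = 0.020). Slc25a30 had -3.59 and -2.88 in stem cells, not well above background, and -1.55 and -1.34 in the non-stem epithelia. It was at least 1.7665-fold lower in stem cells. With normexp the differences of Slc25a14 and Slc25a30 were -0.26 and -0.04 and neither passed. Slc25a27, best known from brain, had 0.12 and 0.81 in stem cells, with 0.41 and -0.11 in the non-stem epithelia, which overlap (adjusted p = 0.46).

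Beside Slc25a34, 2 other genes with no settled substrate were tested. Slc25a35 had 0.35 and -0.02 in stem cells, with 1.15 and 1.62 in the non-stem epithelia, and fell by 1.22 ± 0.23 (limma adjusted p = 0.015). Slc25a46, which acts in mitochondrial shape rather than as a known carrier, had 3.36 and 3.67 in stem cells, with 3.57 and 3.36 in the non-stem epithelia. Those values overlap.

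Genes of the family that the array lists under other names were called in neither direction, with 0 of 5 tested past the threshold. The uncoupling protein genes Ucp2 and Ucp3 differed by -0.37 ± 0.30 and -0.42 ± 0.27. Mtch1 and Mtch2, outer membrane relatives that act in protein insertion and cell death, differed by 0.07 and -0.17, and Mcart1, now named Slc25a51 and known as the NAD carrier, by 0.22. Ucp1, the uncoupling protein of brown fat, was well above background on none of the 4 arrays. Of 8 markers of fat cells 2 were tested and 1 rose, Fabp4 by 2.72 ± 0.25, while the other differed by -0.33 and did not pass. The summed signals were 2.19 and 2.82 in stem cells against 0.76 and 0.75 in the others. Adipoq and Plin1 were not well above background.

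Enzymes that work with the carriers were counted from lists of their pathways. These counts stand beside 14.2% higher and 16.8% lower over all genes tested. Of 9 tested folate, serine and glycine enzymes, the partners of Slc25a32, 5 fell and 1 rose (median -0.67, against -0.01 for all genes). Mthfd2, which oxidises folate-bound carbon in mitochondria, had -0.12 and -0.94 in stem cells, with 1.22 and 1.29 in the non-stem epithelia (difference -1.78 ± 0.29, limma adjusted p = 0.0088). Aldh1l2, the next enzyme in that path, was not well above background in stem cells and was at least 10.9-fold lower there. Like Pycr1 below, it passed the filter through the non-stem epithelia alone, so that the filter favoured a difference. The count and median of each list include these genes. Mthfd1l, which releases formate, rose by 0.97 ± 0.18.

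Of 13 tested ornithine, proline and polyamine enzymes 7 fell and 1 rose (median -0.77). Pycr1, the last step of proline synthesis in mitochondria, had -3.01 and -2.10 in stem cells, not well above background, and 1.74 and 2.19 in the non-stem epithelia, and was at least 14.3-fold lower in stem cells. Aldh18a1, the first step of that path, fell by 3.42 ± 0.28 and was not well above background on 1 of the stem cell arrays. The spermidine synthase gene Srm fell by 1.97 ± 0.18. The ornithine carrier gene Slc25a15 had no level above background in either group, so it could not be set beside them.

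In the malate-aspartate and glycerol phosphate shuttles 2 of 7 enzymes fell and 1 rose: the glycerol phosphate dehydrogenase gene Gpd1 fell by 2.47 ± 0.16, the cytosolic aspartate aminotransferase gene Got1 fell by 0.96 ± 0.16, and Gpd1l rose by 0.80 ± 0.22. In the citrate cycle and citrate export 5 of 22 fell and 1 rose (median -0.03). Acly, which splits exported citrate in the cytosol, fell by 0.96 ± 0.17 beside the citrate carrier gene Slc25a1, the pyruvate dehydrogenase gene Pdha1 fell by 0.99 ± 0.16, and the malic enzyme gene Me3 rose by 0.80 ± 0.15. Of 17 fatty acid oxidation genes, which include the carnitine enzymes Cpt1a and Cpt2, none fell and 1 rose, Hadh by 0.66 ± 0.15.

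Of 19 iron-sulfur and haem genes 6 fell and 1 rose (median -0.22). The erythroid haem enzyme gene Alas2 fell by 1.83 ± 0.20 and Isca1 fell by 1.26 ± 0.16, while the general enzyme gene Alas1 rose by 0.79 ± 0.15. Of 18 genes for the import of proteins into mitochondria, not of carriers alone, 1 fell and none rose. The lower one was the translocase gene Timm17b, with a difference of -1.05 ± 0.15. Of 15 other inner membrane transporters 3 rose and 1 fell. The sideroflexin gene Sfxn3 rose by 0.70 ± 0.15 and Letm2 by 0.92 ± 0.23. Of 12 regulators of mitochondrial biogenesis 2 rose and 1 fell. Ppargc1a, the coactivator that drives mitochondrial gene expression, had a difference of 1.14 ± 0.16 (limma adjusted p = 0.0058), Pprc1 rose by 0.62 ± 0.17 and the mitochondrial DNA polymerase gene Polg fell by 0.73 ± 0.19.

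**Figure D3:**
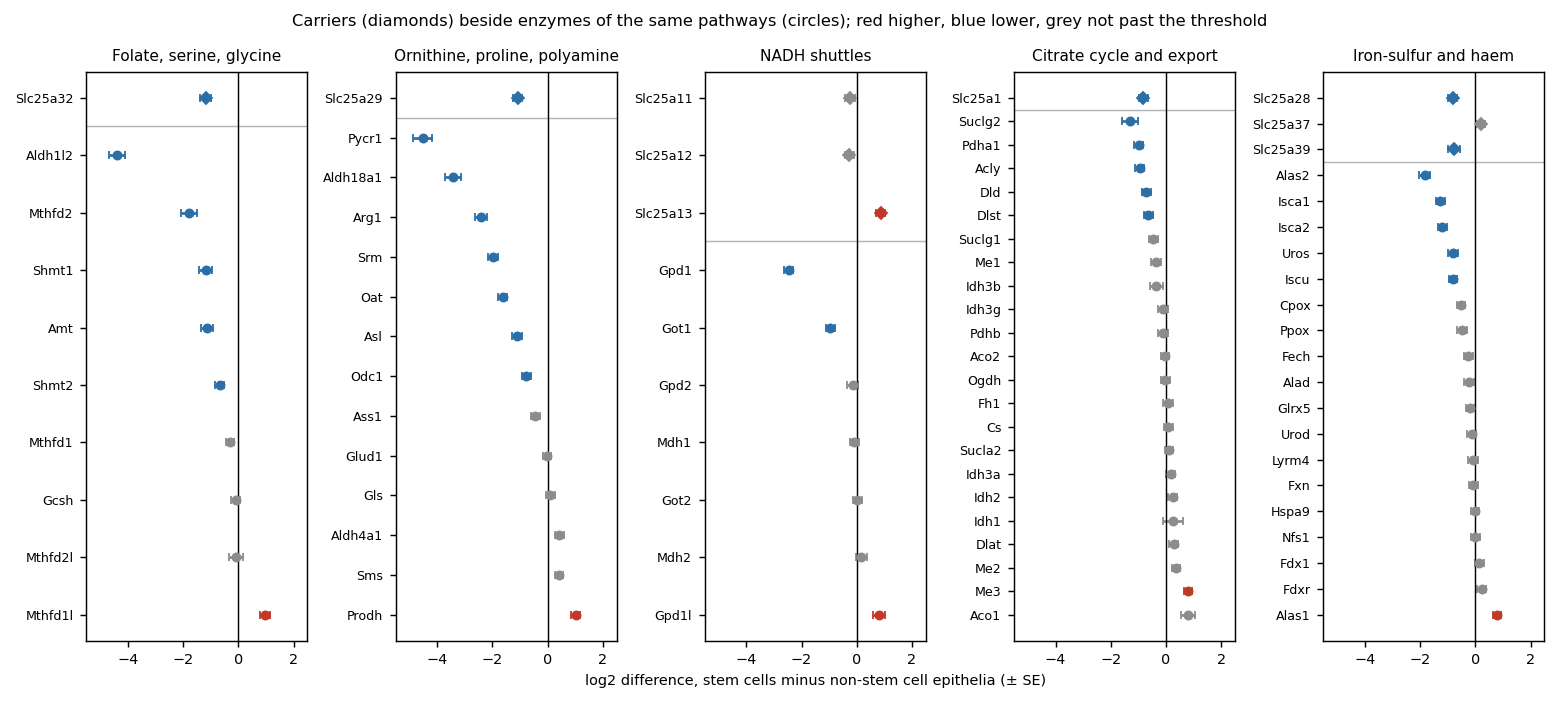
Log2 difference of stem cells minus non-stem cell epithelia (horizontal axis, with SE bars) for carriers (diamonds, above the line) and tested enzymes of 5 pathway lists (circles), with red higher, blue lower and grey not past an adjusted p of 0.05. Aldh1l2 and Pycr1, not well above background in stem cells, are drawn at their measured differences. Slc25a32 stands beside 5 lower folate, serine and glycine enzymes, among them Aldh1l2, which passed the filter through the non-stem epithelia alone. Among the 7 shuttle enzymes shown with Slc25a13, Got1 and Gpd1 are lower, Gpd1l is higher and 4 did not pass.

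Promoter windows of 300 bases, 250 before and 50 after the annotated start, were available from RefSeq (GRCm38.p6) for 34 of the 44 genes. The CCAAT motif, read on both strands, was present in a window of 18 of the 34 genes, or 52.9%, and of 41.1% of 27025 genes in all. It was found in 6 of 11 genes called lower with a window and in 3 of 4 called higher. The motif of NRF1, a regulator of mitochondrial genes, was also read on both strands and was in 2 of the 34 genes, Slc25a3 and Slc25a31, and in 5.19% of all genes. Such a match is a description of the letters and not of binding. The 250 bases before the start are shown for Slc25a34 and Slc25a28, which were lower in stem cells, and for Slc25a4 and Slc25a13, which were higher, with the CCAAT motif (ATTGG where it is read on the other strand) in capitals.
Slc25a34, chr4:141623835-141624084, minus strand: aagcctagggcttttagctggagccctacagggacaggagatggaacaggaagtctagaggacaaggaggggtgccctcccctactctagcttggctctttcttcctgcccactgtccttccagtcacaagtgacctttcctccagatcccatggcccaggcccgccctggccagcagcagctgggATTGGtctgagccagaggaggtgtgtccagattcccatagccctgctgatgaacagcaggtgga
Slc25a28, chr19:43674882-43675131, minus strand: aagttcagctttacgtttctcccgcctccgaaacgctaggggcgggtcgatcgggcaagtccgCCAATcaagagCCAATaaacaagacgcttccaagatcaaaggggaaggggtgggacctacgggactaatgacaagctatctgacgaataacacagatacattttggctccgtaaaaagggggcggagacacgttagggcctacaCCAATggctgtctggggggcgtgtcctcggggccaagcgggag
Slc25a4, chr8:46211063-46211312, minus strand: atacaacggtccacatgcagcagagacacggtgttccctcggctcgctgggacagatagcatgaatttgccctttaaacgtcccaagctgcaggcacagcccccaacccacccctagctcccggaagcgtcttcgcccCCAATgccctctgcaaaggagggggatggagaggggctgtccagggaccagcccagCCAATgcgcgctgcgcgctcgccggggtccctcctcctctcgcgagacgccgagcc
Slc25a13, chr6:6217174-6217423, minus strand: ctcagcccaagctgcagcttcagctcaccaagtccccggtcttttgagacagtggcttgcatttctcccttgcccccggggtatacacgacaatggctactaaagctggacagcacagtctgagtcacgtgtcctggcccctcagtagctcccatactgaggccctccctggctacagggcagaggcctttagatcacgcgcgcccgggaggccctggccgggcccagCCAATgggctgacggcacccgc

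Slc25a28 held the motif 3 times and Slc25a4 held it 2 times in these bases, and the other 2 held it once each. Windows of both higher and lower genes thus carried it.

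The counts were read again under other processing. In 10 refits that kept all 4 arrays, 2 to 16 Slc25 genes were lower and 1 to 5 higher, with the low ends from the fit without a filter on dim probes. Slc25a34, Slc25a16 and Slc25a21 were the 3 of 17 called genes that kept the call in every alternative that gave a value. Without non-stem replicate 2 the lower genes were Slc25a16, Slc25a33 and Slc25a34 and the higher gene was Slc25a21. Without non-stem replicate 1, 7 genes were lower, among them Slc25a23, which had not passed before, and 2 were higher. Slc25a1, Slc25a4, Slc25a13, Slc25a14, Slc25a20, Slc25a28, Slc25a30, Slc25a32 and Slc25a39 lost their calls without either of the non-stem arrays. Slc25a24, Slc25a29, Slc25a35 and Slc25a48 lost them without replicate 2 and kept them without replicate 1. In both of those fits the within-group spread came from the stem cell arrays alone, and the calls over all genes dropped too, to 5.32% lower without replicate 2 and 6.93% lower without replicate 1.

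**Figure D4:**
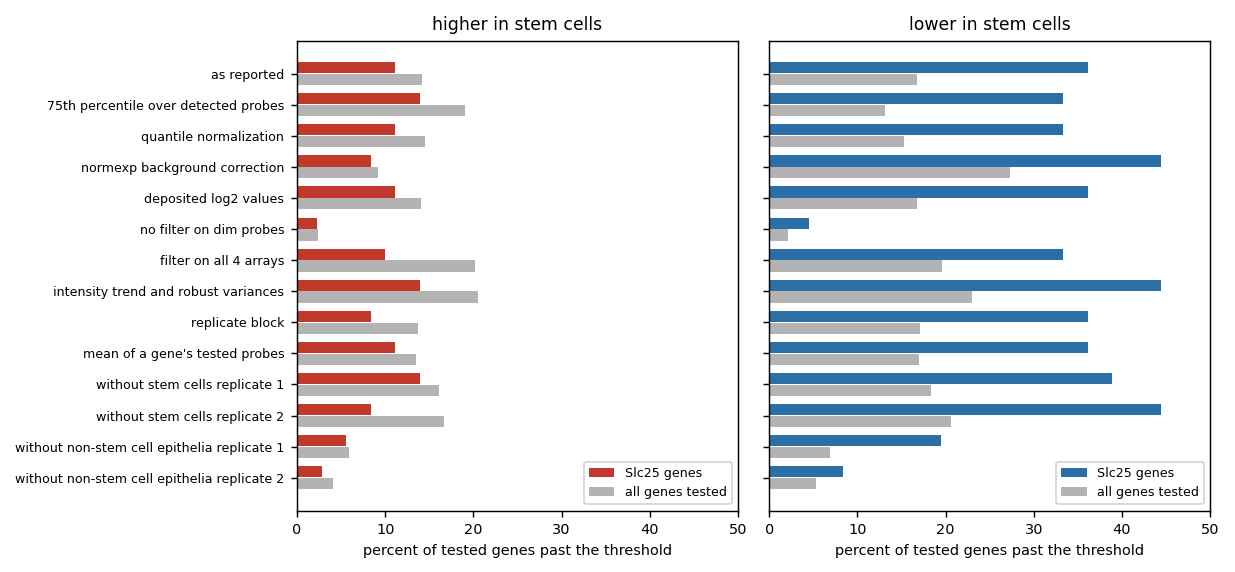
Percent of tested genes past an adjusted p of 0.05 (horizontal axis), higher in stem cells on the left and lower on the right, for the Slc25 genes (coloured bars) and for all genes tested (grey bars) under processing alternatives listed down the page. The Slc25 share lower was 36.1% as reported, against 16.8% for all genes, and the Slc25 share higher lay under that of all genes in each of the fits drawn. The 36.1% includes Slc25a20, Slc25a30 and Slc25a48, which passed the filter through the non-stem epithelia alone. With a filter on all 4 arrays, 10 of 30 Slc25 genes were lower, against 19.6% of all such genes.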

How the data were processed

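Total RNA of 4 samples of the submandibular gland, 2 per group, was hybridised to 1-colour Agilent arrays. The deposited scanner files hold the intensity of each spot (gProcessedSignal, background-subtracted by Agilent Feature Extraction 10.7.3.1, per the file headers, where the submitters' processing notes name version 9.1) and flags for spots well above background. The deposited value table holds log2 values of the same arrays; its scale is log2 and its between-group differences match the scanner's (correlation 1), but its centring is unknown, with column medians of -0.27 and -0.55 for stem cells and -0.83 and -0.75 for non-stem cell epithelia. Coordinates are mm9, per the file headers.

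From the intensities, log2 values relative to each array's 75th percentile were computed, control spots and outlier spots left out and spots of a probe averaged. Each gene was represented by its brightest probe, genes above background on at least 2 arrays were tested, and limma 3.58.1 (R 4.3.3) compared the groups with Benjamini-Hochberg adjustment over all 17306 genes. The fit was run on simulated data drawn from its own noise model, which cannot show how well that model suits these arrays. The number of arrays limits the precision. Slc25 genes were named, except that a few genes of the family and of the lists are not reported here by name, though they remain in all counts; values on every array were given for those with a bound or at least 2-fold past the threshold, and, beyond that rule, for others after their values were seen. Of each pathway list, up to 3 called genes of smallest p were named; Alas1, Cpt1a, Cpt2 and single markers were named after their values were seen. The members and lists were chosen with earlier results of these data known. Promoter windows were taken from RefSeq (GRCm38.p6). Alternatives were the 75th percentile over detected probes, quantile normalization, normexp with an offset of 50, and the deposited log2 values. Further ones were other filters, variance settings, probe averages, replicate blocks and leaving out each array. The titles do not say that numbers pair samples, so numbers were not treated as pairs. Deviations of same-numbered samples had a correlation of -0.10 across genes, which with 2 arrays per group cannot show whether samples were paired.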

Additional observations from a re-analysis of the deposited data

How the results depend on the processing

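As reported, 4 Slc25 genes were higher and 13 lower in stem cells. Without a filter on dim probes 1 was higher and 2 lower (850 and 769 of all genes), where 8 more Slc25 genes and all dim genes were tested. Leaving out 1 array at a time gave 1 to 5 higher and 3 to 16 lower Slc25 genes, and 700 to 2882 higher and 921 to 3561 lower among all genes; the low ends came without non-stem replicate 2. Requiring 2-fold left 2 higher. With normexp 1596 of all genes were higher and 4730 lower, 25.2% of calls being higher, against 45.8% as reported and 59.4% with the percentile over detected probes, which moved the median of all genes by 0.14. Normexp added an offset of 50, where the 75th percentile of the processed signal was 30.4 and 43.3 for stem cells. It was 74.8 and 63.0 for the others. With normexp Slc25a5 differed by -0.47 and Slc25a48 by 0.021, and the cause was not tested. With the replicate number as a block, 3 Slc25 genes were higher and 13 lower, and 2376 and 2964 of all genes. With crossed numbers as a block, chosen after seeing the data, these were 3 and 12, and 2113 and 2445. Dim probes limit what is measured: 8 Slc25 genes had no level above background, and 4 have only a bound.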
